A study of Mus musculus with 6 samples.

Results

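The 10 genes described here mark macrophages and their states of activation, and were chosen by name. They were Nos2, Cd80 and Cd86, read as inflammatory markers, Arg1, Mrc1, Cd163, Chil3, Retnla and Mgl2, read as reparative markers, and Cd68, a general macrophage marker. All 10 were found among the 26012 genes of the expression table. They were measured by RNA-seq in the ventricles of 6 hearts of male C57BL/6 mice, operated on at 8 weeks of age and all harvested on day 4 after MI made by tying off the left anterior descending coronary artery. At surgery 3 of the hearts were injected with a control mimic and 3 with the miR-19a/19b mimic, at 10 μg of mimic per heart. There was no heart without MI and none without an injection. RNA came from whole ventricle, not from isolated macrophages, and the mimic was injected into muscle that holds many other cell types, so cells that took up the mimic and cells that did not were measured together.

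Macrophages are phagocytes that enter the infarct from the blood or live in the heart muscle. Interferon gamma and bacterial products drive them towards an inflammatory state, in which they make nitric oxide and display ligands that stimulate T cells. IL-4 and IL-13 drive them towards a reparative state, with arginase, scavenger receptors and lectins, and in the healing heart an early inflammatory wave gives way to a reparative one. Macrophages in tissue often carry marks of both states, so each gene is described on its own.

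A miRNA binds mRNAs through its seed, bases 2 to 8 from its 5′ end, and mostly lowers the level or translation of mRNAs that carry the matching letters in their 3′ UTR. The mature sequences of both injected miRNAs are shown because they define which marker mRNAs carry such a match. They were taken from RefSeq for GRCm38.p6, with the seed in capitals, and lie on the plus strand of chromosome 14 at chr14:115044048-115044070 for miR-19a-3p and chr14:115044358-115044380 for miR-19b-3p.
mmu-miR-19a-3p: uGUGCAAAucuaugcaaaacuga
mmu-miR-19b-3p: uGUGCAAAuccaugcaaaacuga
Both were 23 bases long and shared the seed, and they differed at 1 base, U11C, counted from the 5′ end of miR-19a-3p.

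The longest annotated 3′ UTR of each marker gene was searched on its own strand for TTTGCACA, for TTTGCAC and for TTGCACA, where the first holds both others and was counted once. Of the 10 genes, 2 held a match and 8 held none. The 3 matches are shown with the searched letters in capitals, since they tell which marker mRNAs could pair with the injected miRNAs. The last A of each stands opposite base 1 of the miRNA, outside the seed, so the 8mer covers the whole seed and the 7mers cover all of it but base 8.
Cd80 8mer: catagggacgaTTTGCACAtttgcttgcac
Cd80 7mer: tgcacatttgcTTGCACAtcacacacaca
Cd86 7mer: ttttatctgtcTTGCACActtgcatactt
The Cd80 matches lay at chr16:38494687-38494694 and chr16:38494700-38494706 on the plus strand of GRCm38, in a 3′ UTR of 1896 bases. That UTR belongs to 1 GENCODE M21 transcript, and the 8mer begins 7754 bases past the end of the Cd80 gene model in the authors' table, so reads over it were not part of the Cd80 count as that model lists it. The Cd86 match lay at chr16:36604957-36604963 on the minus strand, inside the gene model, in a 3′ UTR of 1493 bases. A match was no rarity, as 19.4% of the 15866 tested genes with an annotated 3′ UTR held at least 1 and 3.93% held 2 or more. The median log2 fold change between the mimics was -0.03 for genes with a match and 0.01 for genes without one. A match is a string of letters in an annotated UTR and not a measured binding site.

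Each heart gave from 19398196 to 23645308 reads on genes. Cardiomyocyte mRNAs, which fit the ventricle label, were abundant in all 6 libraries, but their amount differed between hearts of one group. The normalized counts of 12 cardiomyocyte genes summed to between 599563 and 798533 in the control mimic hearts, to 1105628 and 1011173 in miR-19a/19b mimic hearts 1 and 2, and to 368186 in miR-19a/19b mimic heart 3. The sum of 20 macrophage lineage genes ran from 140223 to 172280 in the control mimic hearts, and was 113020, 127365 and 174263 in miR-19a/19b mimic hearts 1, 2 and 3. None of these 20 genes was at 0 in all hearts. Skeletal muscle genes summed to 4872 in miR-19a/19b mimic heart 1 and to between 331.9 and 561.5 elsewhere. In bulk tissue, fewer macrophages and less of an mRNA per macrophage cannot be told apart, and this holds for every value that follows. Where leaving out miR-19a/19b mimic heart 1 or 3 turned the sign of a marker or its call, the value without that heart is given beside it.

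All 10 marker genes were tested, and none passed the test across the genome. Limma on log2(normalized count + 1) gave an adjusted p of 0.9996 for each of the 10, and over all 21126 genes tested 0 passed at an adjusted p under 0.05 (0%), the smallest being 0.3961. At an unadjusted p under 0.05, 1 marker was higher in the miR-19a/19b mimic hearts, Cd163, and 0 were lower. The background was 1.39% of genes higher and 2.63% lower, together 4.01%. For 1 marker, Cd86, no heart of one group reached the normalized counts of the other, and it was lower in all 3 miR-19a/19b mimic hearts. Across all genes tested 9.2% did not overlap, 3.9% being higher and 5.3% lower. Of the 10 log2 fold changes, 7 were positive and 3 negative with a median of 0.10, while 50.8% of all genes were positive with a median of 0.004. An exact permutation test of 3 against 3 hearts cannot give a p under 0.1.

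**Figure D1:**
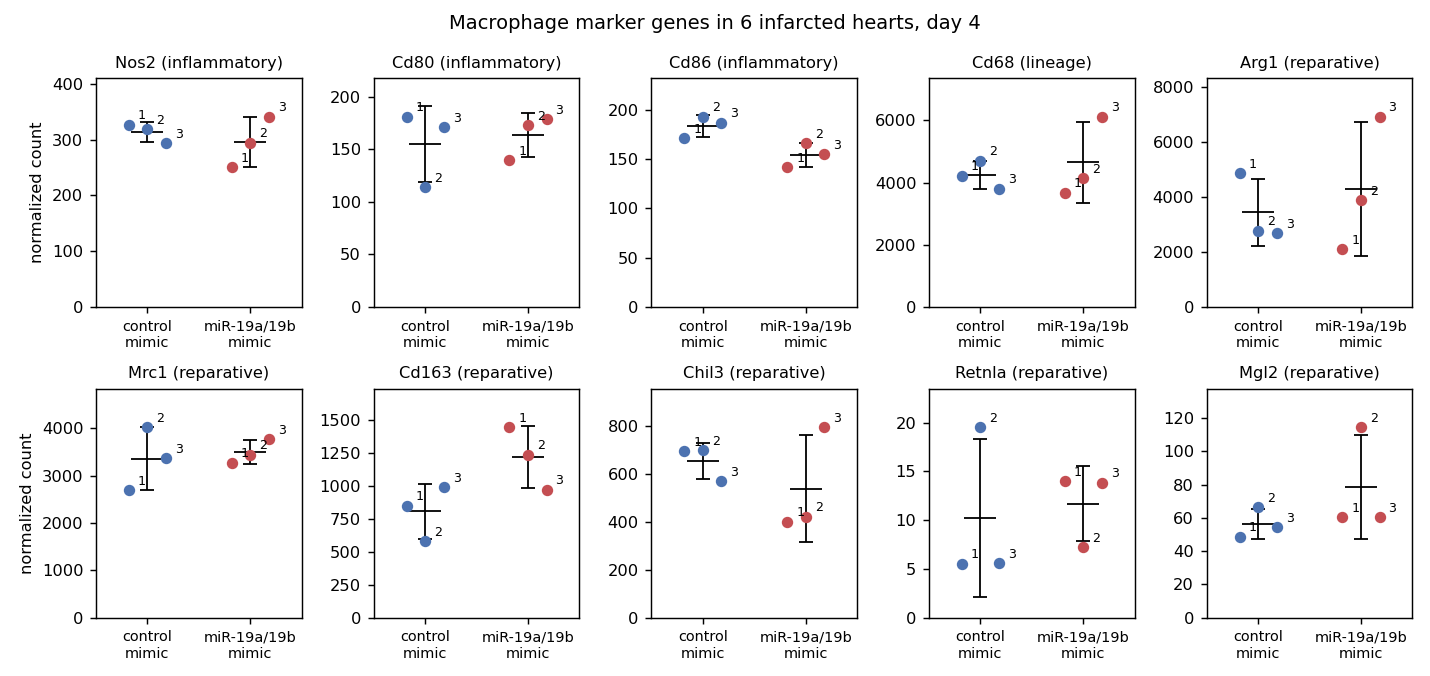
Normalized counts of the 10 marker genes (y axes, linear from 0) in control mimic hearts (blue) and miR-19a/19b mimic hearts (red), 1 panel per gene. Each point is 1 heart with its replicate number, and the bars are the mean and SD of 3 hearts. Cd86 is the gene whose groups are apart, and Arg1 and Chil3 show the wide spread of the miR-19a/19b mimic hearts.

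Among the inflammatory markers, Nos2 (ENSMUSG00000020826, chr11:78920787-78960254), the inducible synthase that makes nitric oxide from arginine, had normalized counts of 327.2, 319.1 and 293.3 in control mimic hearts 1 to 3 and 250.7, 294.9 and 341.5 in miR-19a/19b mimic hearts 1 to 3. The control mimic hearts lay inside the range of the miR-19a/19b mimic hearts. The means were 313.2 ± 17.7 and 295.7 ± 45.4 (SD, n = 3 each), a log2 fold change of -0.09 with an SE of 0.14 and a 95% confidence interval of -0.41 to 0.22. Without miR-19a/19b mimic heart 1 the difference was 0.02, so its sign rested on that heart.

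Cd80 (ENSMUSG00000075122, chr16:38458933-38486933) and Cd86 (ENSMUSG00000022901, chr16:36603869-36666081) encode the ligands on antigen-presenting cells that are bound by Cd28, which stimulates T cells, and Ctla4, which restrains them. The Cd80 counts were 181.3, 114.2 and 171 in the control mimic hearts and 139.9, 173.2 and 178.9 in the miR-19a/19b mimic hearts. The groups overlapped in full, with control mimic heart 2 the lowest of the 6. The log2 fold change was 0.10 (SE 0.20, interval -0.36 to 0.55), and -0.11 without control mimic heart 2. The Cd86 counts were 171.3, 193.2 and 186.8 in the control mimic hearts and 142, 166 and 154.7 in the miR-19a/19b mimic hearts. Every miR-19a/19b mimic heart was below every control mimic heart, the closest pair being 171.3 and 166. The means were 183.8 ± 11.3 and 154.2 ± 12 (SD, n = 3 each), a log2 fold change of -0.25 with an SE of 0.13 and an interval of -0.56 to 0.05 (limma, unadjusted p = 0.0918). Leaving out each heart in turn gave -0.31 to -0.19. This was the narrowest such range of the 10 markers, yet the difference did not pass the test. Dendritic cells also carry Cd86, and the mean log2 level of 10 of their genes was -0.14, 0.11 and 0.03 in the control mimic hearts and -0.59, -0.56 and -0.33 in the miR-19a/19b mimic hearts, from the control mimic mean. These were lower and apart as well, while their summed counts, 1419 to 1523 and 1181 to 1431, overlapped. The part of dendritic cells in the Cd86 difference was not tested.

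Cd68 (ENSMUSG00000018774, chr11:69664213-69666153), a lysosomal glycoprotein of phagocytes, had counts of 4216, 4700 and 3798 in the control mimic hearts and 3681, 4146 and 6125 in the miR-19a/19b mimic hearts. miR-19a/19b mimic heart 3 was the highest and heart 1 the lowest, with all control mimic hearts between them. The log2 fold change was 0.10 (SE 0.19, interval -0.32 to 0.53), and -0.11 without miR-19a/19b mimic heart 3.

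The reparative markers were led by Cd163 (ENSMUSG00000008845, chr6:124304656-124330527), the scavenger receptor for haemoglobin bound to haptoglobin and a marker of resident macrophages. Its counts were 851, 578.7 and 991.2 in the control mimic hearts and 1445, 1238 and 971.6 in the miR-19a/19b mimic hearts. All 3 miR-19a/19b mimic hearts stood above the control mimic mean, but heart 3 stood just under control mimic heart 3. The means were 807 ± 210 and 1218 ± 237 (SD, n = 3 each). The limma log2 fold change was 0.61, or 1.53-fold, with an SE of 0.21 and an interval of 0.13 to 1.09. The unadjusted p of 0.0178 ranked 314 of 21126 genes and was lost in the adjustment (limma, adjusted p = 0.9996). DESeq2 and edgeR's quasi-likelihood test on recovered reads both gave a log2 fold change of 0.59, with adjusted p of 0.7499 and 0.9998. Leaving out each heart gave 0.39 to 0.78, and the unadjusted p stayed under 0.05 in 4 of 6 cases, but was 0.0655 without control mimic heart 2 and 0.0617 without miR-19a/19b mimic heart 1. The 6 hearts stood in nearly the same order for Cd163 as for the cardiomyocyte list, with miR-19a/19b mimic hearts 1 and 2 at the top of both and control mimic heart 2 low in both, while miR-19a/19b mimic heart 3 was lowest in the cardiomyocyte list and between the control mimic hearts in Cd163. The part of the cardiomyocyte share in the Cd163 values was not tested.

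Chil3 (ENSMUSG00000040809, chr3:106147554-106167564), a secreted chitinase-like protein also made by monocytes and neutrophils, was the 1 reparative marker with a negative difference. Its counts were 694.1, 696.8 and 568 in the control mimic hearts and 399.2, 420.6 and 793.5 in the miR-19a/19b mimic hearts. miR-19a/19b mimic hearts 1 and 2 were below every control mimic heart and heart 3 was above every one. The log2 fold change was -0.35 (SE 0.24, interval -0.90 to 0.20, unadjusted p = 0.185). Without miR-19a/19b mimic heart 3 it was -0.66 with a limma adjusted p of 0.0210, when 164 genes in all were called lower and 383 higher. The 13 neutrophil genes summed to 1165, 1912 and 3660 in miR-19a/19b mimic hearts 1 to 3 and to 2140 to 2793 in the control mimic hearts, and the 10 monocyte genes, Chil3 among them, to 6679, 8054 and 10321 against 9762 to 11919. Their part in the Chil3 values was not tested. Of the 50-base stretches of Chil3, 16.9% are shared with Chil4 and 13.3% with Gm6522, so its count is uncertain to the extent that such reads were split or dropped.

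Arg1 (ENSMUSG00000019987, chr10:24915208-24927470), the arginase that splits arginine to ornithine and urea and so competes with Nos2 for its substrate, had counts of 4861, 2777 and 2682 in the control mimic hearts and 2093, 3886 and 6928 in the miR-19a/19b mimic hearts. The highest and the lowest heart of the 6 were both miR-19a/19b mimic hearts, 3.31-fold apart. In log2 units the difference was 0.21 (SE 0.39, interval -0.68 to 1.11). It was -0.21 without miR-19a/19b mimic heart 3 and 0.65 without miR-19a/19b mimic heart 1, so either direction could be had by leaving out 1 heart. Mrc1 (ENSMUSG00000026712, chr2:14229392-14332057), the mannose receptor, had counts of 2695, 4020 and 3365 in the control mimic hearts and 3273, 3439 and 3764 in the miR-19a/19b mimic hearts. All miR-19a/19b mimic hearts lay inside the control mimic range. Its difference in log2 units was 0.07 (SE 0.15, interval -0.27 to 0.41), and -0.08 without control mimic heart 1.

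The remaining reparative markers were scarce. Mgl2 (ENSMUSG00000040950, chr11:70130329-70137550), a lectin receptor for galactose sugars, had counts of 48.6, 66.4 and 54.2 in the control mimic hearts and 60.3, 114.4 and 60.5 in the miR-19a/19b mimic hearts. Its log2 fold change of 0.41 (SE 0.28, interval -0.22 to 1.04) rested largely on miR-19a/19b mimic heart 2, without which it was 0.11. Mgl2 shares 12.2% of its 50-base stretches with its neighbour in kind, Clec10a, which had a log2 fold change of 0.03 (SE 0.22). Retnla (ENSMUSG00000061100, chr16:48842552-48844461), a small secreted resistin-like protein induced by IL-4, had counts of 5.53, 19.5 and 5.61 in the control mimic hearts and 14, 7.22 and 13.8 in the miR-19a/19b mimic hearts. These rested on as few as 5 reads in a heart. The interval of its log2 fold change of 0.35 ran from -0.83 to 1.53, so these counts fixed neither the sign nor the size of a difference. Mgl2 had between 44 and 111 reads per heart, and the other 8 markers had at least 50 in every heart.

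**Figure D2:**
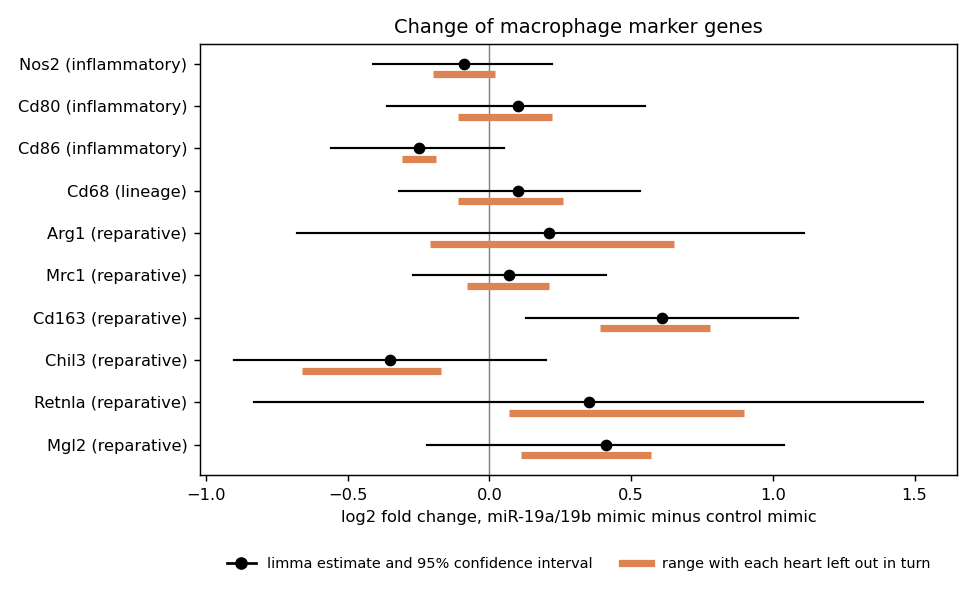
The log2 fold change of each marker gene (x axis, miR-19a/19b mimic minus control mimic), with the limma estimate and its 95% confidence interval in black and the range over fits that leave out 1 heart in orange. The interval for Cd163, 0.13 to 1.09, is the 1 that lies wholly above 0, and the orange ranges of Nos2, Cd80, Cd68, Arg1 and Mrc1 cross 0.

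By group, 5 of 6 reparative markers had a positive and 1 a negative log2 fold change, with a median of 0.28, and of 3 inflammatory markers 1 was positive and 2 were negative, with a median of -0.09. The mean log2 level of the reparative markers minus that of the inflammatory ones was 0.76, 1.15 and 0.73 in the control mimic hearts and 1.19, 1.08 and 1.27 in the miR-19a/19b mimic hearts. The miR-19a/19b mimic hearts were close to each other, at 1.18 ± 0.10 (SD, n = 3). The control mimic hearts were at 0.88 ± 0.24, with control mimic heart 2 inside the range of the other group. Retnla weighs as much in this difference as each other reparative marker, on 5 to 20 reads per heart. Its count was 19.5 in control mimic heart 2, against 5.53 and 5.61 in control mimic hearts 1 and 3. The difference without Retnla is not given here, and the part of Retnla in this overlap was not tested. The log2 level of Arg1 minus that of Nos2, the ratio of the enzymes that share arginine, was 3.89, 3.12 and 3.19 in the control mimic hearts and 3.06, 3.72 and 4.34 in the miR-19a/19b mimic hearts, with full overlap. The log2 level of Cd163 minus that of Cd68 was -2.42 ± 0.55 in the control mimic hearts and -1.92 ± 0.67 in the miR-19a/19b mimic hearts (SD, n = 3 each), also overlapping.

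Per length of the gene model, the level of the markers spanned a wide range. Cd68 was highest, at a mean of 3536 ± 714 normalized counts per kb over the 6 hearts (SD), and above Arg1, at 2623 ± 1216, in 6 of 6 hearts, although their ranges overlapped. Both stood in the top 2% of tested genes, at percentiles 98.7 and 98.1. Next came Mrc1 at 538 ± 71.2, with every heart below the lowest Arg1 level, then Chil3 at 365 ± 98.5 and Cd163 at 185 ± 55.2, and these neighbours overlapped. Cd80 at 93.9 ± 15.8 and Nos2 at 69 ± 7.31 overlapped, and the range of Nos2 was wholly above that of Cd86 at 46.2 ± 5.26. Mgl2 at 32.2 ± 11.4 and Retnla at 18.3 ± 9.54 closed the order, overlapping each other. The infarcted ventricles thus held far more Arg1 than Nos2 mRNA per length in every heart, under either mimic. The lengths are those of the authors' gene models. For Cd80 that length is 1701 bases against 3703 annotated exonic bases in GENCODE M21, and for Arg1 1476 against 2228, so the levels of these genes per length depend on the model.

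**Figure D3:**
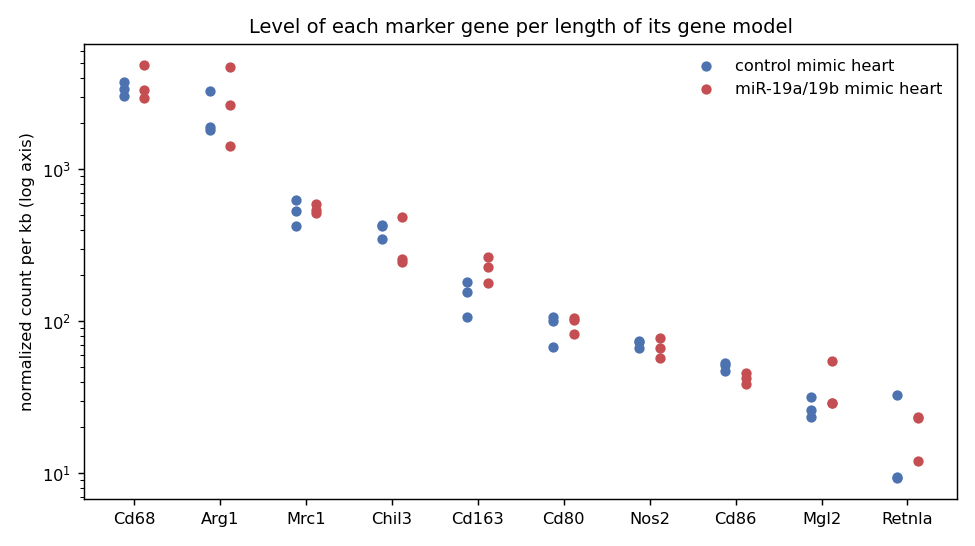
Normalized counts per kb of gene model (y axis, log scale) for the 10 marker genes, ordered by their mean, in control mimic hearts (blue) and miR-19a/19b mimic hearts (red), 1 point per heart. Cd68 and Arg1 stand above the rest, the lowest Arg1 heart at 1418 and the highest Mrc1 heart at 631 per kb.

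To set the markers against the macrophage lineage list, the mean log2 level of its 20 genes in the same heart was taken away from that of each marker. The part of other leukocytes in the level of these 20 genes was not tested, so the list is not a measure of macrophage mRNA alone. Relative to the lineage list, Cd68 was 0.08, -0.01 and -0.07 in the control mimic hearts and 0.24, 0.24 and 0.36 in the miR-19a/19b mimic hearts, in log2 units from the control mimic mean. All 3 miR-19a/19b mimic hearts stood above the control mimic hearts, by 0.28 on average, with an SD of 0.07 in each group. Cd68 was the 1 marker of 10 whose relative levels did not overlap, and it was also apart and higher with Adgre1, Csf1r, Mertk and Fcgr1 alone as the reference. This is a description with no test, and the share of all genes with relative levels apart is not given here. The lineage list had itself 19 of 20 negative log2 fold changes, with a median of -0.15. That median was 0.00 without miR-19a/19b mimic heart 1 and -0.34 without heart 3. Setting a gene against a list that is lower raises its relative level, even where its own count did not change. Relative Cd163 was 0.19, -0.61 and 0.42 in the control mimic hearts and 1.32, 0.91 and 0.12 in the miR-19a/19b mimic hearts, a difference of 0.78 with overlap. The other reparative markers differed by 0.59 for Mgl2, with miR-19a/19b mimic heart 2 at 1.28 and heart 3 at -0.07, by 0.52 for Retnla, 0.39 for Arg1, 0.25 for Mrc1 and -0.17 for Chil3. The inflammatory markers differed by 0.27 for Cd80, 0.08 for Nos2 and -0.08 for Cd86, and all of these overlapped. Cd86, apart from the control mimic hearts in its plain counts, overlapped them once set against the lineage list. Leaving out miR-19a/19b mimic heart 3 raised the number of markers with relative levels apart from 1 to 5. Without that heart, 1289 of all genes were lower and 1778 higher at an unadjusted p under 0.05 (limma), against 555 and 293 with all hearts. The rise among the markers therefore cannot be told from a rise over all genes.

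**Figure D4:**
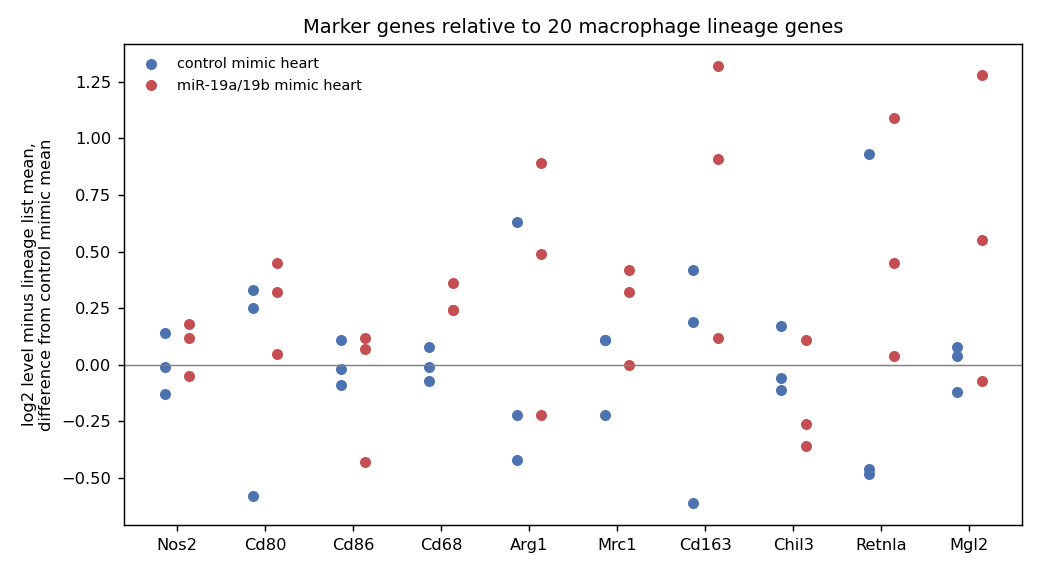
Log2 level of each marker gene minus the mean log2 level of 20 macrophage lineage genes in the same heart, as a difference from the control mimic mean (y axis), with 1 point per heart in blue for control mimic and red for miR-19a/19b mimic. Cd68 is the gene whose red points, 0.24 to 0.36, all lie above its blue points, -0.07 to 0.08.

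Several markers were highest or lowest in the same heart. miR-19a/19b mimic heart 3 was the highest of the 6 for 4 markers, Nos2, Arg1, Cd68 and Chil3, and miR-19a/19b mimic heart 1 was the lowest for 5, these 4 and Cd86. In miR-19a/19b mimic heart 3 the cardiomyocyte list was 0.93 below and the lineage list 0.18 above the control mimic mean on the log2 scale. In miR-19a/19b mimic heart 1 the cardiomyocyte list was 0.70 above it and the lineage list at -0.44. Cd163 went the other way, with its highest count in miR-19a/19b mimic heart 1. Control mimic heart 2 was the highest for Mrc1, Retnla and Cd86 and the lowest for Cd163 and Cd80. Thus the reparative markers did not share an order of hearts. The part of tissue composition in these values was not tested.

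**Figure D5:**
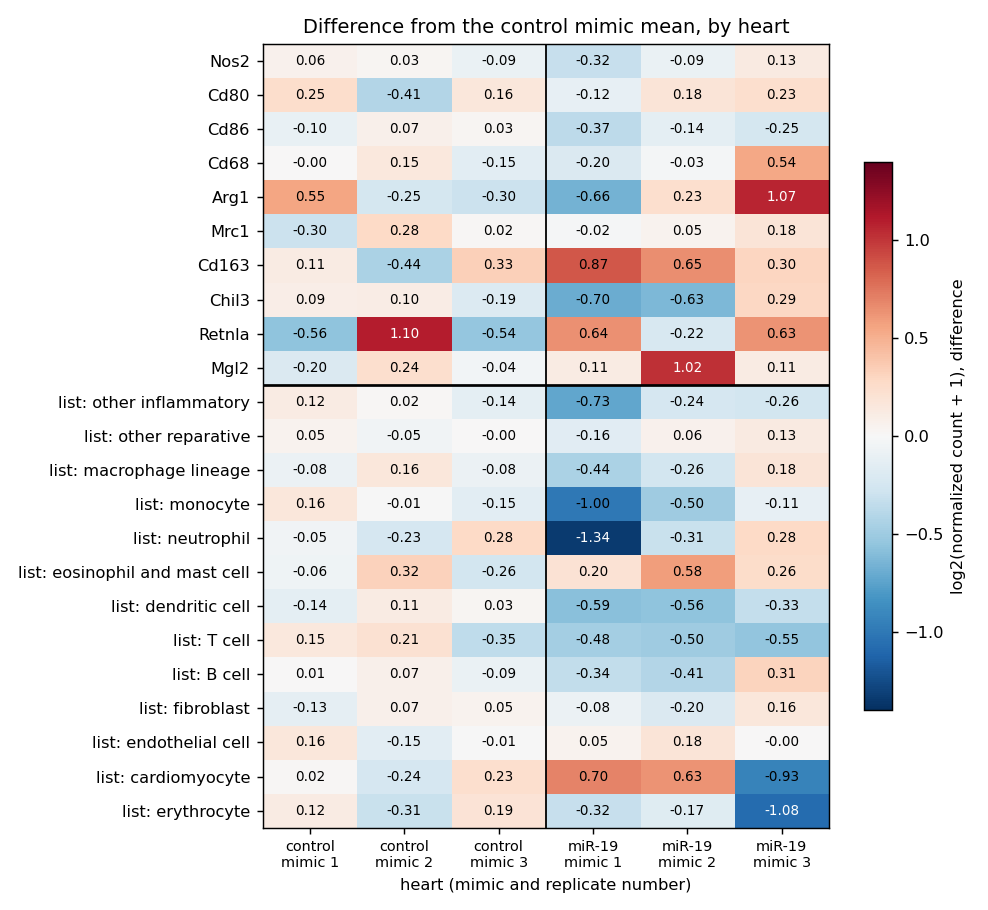
Difference of each marker gene (top rows) and of the mean of each gene list (bottom rows) from the control mimic mean in each heart, in log2(normalized count + 1), printed in each cell and coloured blue for lower and red for higher. Arg1 at 1.07 and the cardiomyocyte list at -0.93 stand out in miR-19a/19b mimic heart 3, and Cd163 at 0.87 in miR-19a/19b mimic heart 1.

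Genes whose pattern over the 6 hearts was most like that of a marker were sought among 14184 genes with a mean of at least 20, by the root mean square difference of centred log2 levels. The 6 points share their libraries, and the likeness is a description. Nearest to Arg1 were F10, coagulation factor X, at 0.13, 2010204K13Rik at 0.15 and Entpd3 at 0.16, against 0.58 for the spread of Arg1 itself. F10 had counts of 288.5, 173.7 and 204.6 in the control mimic hearts and 125.9, 225.8 and 464.2 in the miR-19a/19b mimic hearts, the same high and low hearts as Arg1. Nearest to Chil3 were Mefv, which encodes the inflammasome protein pyrin, at 0.07, and Arhgap25 and Nlrp3, the latter an inflammasome sensor, at 0.10 each. Mefv had counts of 360.3, 377.7 and 273.7 in the control mimic hearts and 190.4, 223.7 and 382.1 in the miR-19a/19b mimic hearts.

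Nearest to Cd163 were Gm12473, Rasd1 and Alox5, the arachidonate lipoxygenase of leukotriene synthesis, at 0.10 each. Alox5 had counts of 196.7, 145.4 and 240.1 in the control mimic hearts and 308.8, 251.6 and 223 in the miR-19a/19b mimic hearts, again with control mimic heart 2 lowest and miR-19a/19b mimic heart 1 highest. Cd68 was nearest to Sec61b, a subunit of the channel that brings proteins into the endoplasmic reticulum, at 0.02, and to Snai1 and Batf, both transcription factors, at 0.03. Mgl2 was nearest to Ikzf4 and Stab2 at 0.17 and RP23-73F23.5 at 0.18, all with means between 20.1 and 26.8. For the markers that varied little, the nearest genes were Klhdc4, Cd300ld and H3f3b for Nos2 at 0.03 each, Slc35e3, Mdm4 and Pmvk for Mrc1 at 0.04 each, Plekha4, Gm6483 and Slfn5 for Cd86 at 0.03 each, and Rps19-ps6, Gm29093 and Enpp3 for Cd80 at 0.06 to 0.07. Retnla was below the limit and was not searched. Among the markers themselves the closest pairs were Nos2 with Cd86 and Nos2 with Cd68, at 0.16 each. The spreads of Nos2, Cd86 and Cd68 themselves were 0.14, 0.15 and 0.24. The difference thus exceeded the spread of Nos2 and of Cd86 but was under that of Cd68. Nos2 and Cd68 were both highest in miR-19a/19b mimic heart 3 and lowest in miR-19a/19b mimic heart 1. Why these pairs were near was not tested.

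Other genes of the inflammatory state had mostly negative differences. Of 23 tested genes of that list, 1 had a positive and 22 a negative log2 fold change, with a median of -0.41 (-0.16 without miR-19a/19b mimic heart 1), and 0 passed at an adjusted p under 0.05. At an unadjusted p under 0.05, 4 were lower and 0 higher, against 2.63% of all genes lower. Ccl5, a chemokine for T cells, had counts of 107.2, 128.8 and 88.8 in the control mimic hearts and 52.7, 45.4 and 64 in the miR-19a/19b mimic hearts, which makes a log2 fold change of -0.99 (SE 0.21, limma adjusted p = 0.7905). Ccr7, a homing receptor that dendritic cells also carry, was at -0.82 (SE 0.23) and the interferon-induced chemokine Cxcl9 at -0.68 (SE 0.21), both with groups apart. The cytokines Il1b, Il6 and Tnf had log2 fold changes of -0.47, -0.23 and -0.23 with SEs of 0.52, 0.35 and 0.48, and their groups overlapped. Ccl5 is also made by T cells, whose 10 genes summed to 276.5 to 395.2 in the control mimic hearts and 219.6 to 243.8 in the miR-19a/19b mimic hearts. The part of T cells and dendritic cells in these values was not tested.

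Other genes of the reparative state were split. Of 25 tested genes, 11 were positive and 14 negative with a median of -0.02, 0 passed at an adjusted p under 0.05, and at an unadjusted p under 0.05 there was 1 in each direction, against 1.39% of all genes higher and 2.63% lower. Ccl24, a chemokine for eosinophils, had counts of 34.3, 6.83 and 27.1 in the control mimic hearts and 24.8, 80.4 and 72.6 in the miR-19a/19b mimic hearts, which makes a log2 fold change of 1.44 (SE 0.62), with overlap. Cd209a, a lectin also carried by dendritic cells, was at -0.85 (SE 0.31). The 6 reparative markers and this wider list therefore differed in their medians, 0.28 and -0.02, a difference that was not tested.

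Of 27 tested cytokines, receptors and transcription factors that direct polarization, 9 were positive and 18 negative, with a median of -0.10, and 0 passed at an adjusted p under 0.05. The macrophage growth factor Csf1 had counts of 2375, 2381 and 2345 in the control mimic hearts and 2019, 1993 and 1993 in the miR-19a/19b mimic hearts, tight within each group and apart, at a log2 fold change of -0.24 (SE 0.09, limma adjusted p = 0.9996). The IL-10 receptor chain Il10ra was at -0.46 (SE 0.14) and also apart, and the transcription factor Cebpb, known to drive Arg1 expression, was at 0.36 (SE 0.13) with overlap. Socs1, an inhibitor of interferon and IL-4 signalling, had counts of 114.9, 143.5 and 90.6 in the control mimic hearts and 58.1, 105.2 and 138.3 in the miR-19a/19b mimic hearts, which makes a log2 fold change of -0.27 (SE 0.31) with overlap.

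Among 15 genes of arginine metabolism, Arg1 and Nos2 included, 7 were positive and 8 negative with a median of -0.01, and none had an unadjusted p under 0.05 (limma; 0 by adjusted p). Arg2, the mitochondrial arginase, had a log2 fold change of 0.23 (SE 0.30) at a mean count of 27.1, and the arginine transporter Slc7a2 one of -0.29 (SE 0.15). Of 8 tested receptors of Cd80 and Cd86 and related ligands, 3 were positive and 5 negative with a median of -0.03. The receptors Cd28, at 0.13 (SE 0.23), and Ctla4, at 0.09 (SE 0.39), overlapped between groups. The inhibitory ligand Cd274 had counts of 380.2, 331.8 and 243.8 in the control mimic hearts and 132.3, 225.8 and 221.3 in the miR-19a/19b mimic hearts. Its log2 fold change was -0.74 (SE 0.24, limma adjusted p = 0.9996). Pdcd1, the receptor of Cd274, was at -0.89 (SE 0.37). Its counts were 11.05, 23.42 and 24.29 in the control mimic hearts and 10.76, 9.28 and 8.64 in the miR-19a/19b mimic hearts. The groups were barely apart, the closest pair being 11.05 and 10.76.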

How the data were processed

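RNA was isolated from ventricular tissue with Trizol, poly-T beads were used to purify mRNA, and libraries made with a NEBNext Ultra kit were sequenced as paired ends. The authors discarded low-quality and adapter-bearing reads, used STAR (2.5.1b) for alignment and counted reads per gene with HTSeq (0.6.0). Whether strand was used in counting was not given in the sources used here. In the deposited signal, a normalized count, the reads of a gene are scaled by the size factor of each library (DESeq2 1.10.1 is listed in the submitters' processing notes). Dividing by the step of each library gave whole reads for 100% of values (tolerance 0.01). The authors' table also holds their own log2 fold changes and p-values, and a second table is their list of called genes. Neither was used.

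The main test was limma 3.58.1 (R 4.3.3), its prior trended, applied to log2(normalized count + 1) for all genes whose mean reached 1, adjusted by Benjamini-Hochberg over all of them and called at 0.05. The added 1 can pull the log2 ratios of scarce genes towards 0. Retnla was at 0.35 with it and at 0.40 with 0.1 added instead. The count tests did not give a larger value for Retnla, as DESeq2 and edgeR on recovered reads both gave 0.19. Alternatives were DESeq2 1.42.0 and edgeR 4.0.16 (quasi-likelihood, TMM) on the recovered reads, no filter, a mean of at least 10, a pseudocount of 0.1, a replicate block and each heart left out. The test was also run on simulated data with known changes.

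The members and lists were chosen with earlier results of these data known. Named were all members, from each list the genes with an unadjusted p under 0.05 (at most 4 by size of change) or else at most 2 with a mean of at least 20, the genes Socs1, Arg2, Cd28 and Ctla4, and the 3 genes nearest to each member. Some genes that this rule would name are not reported here. Il1b, Il6, Tnf, Clec10a, Clec9a, Zbtb46 and the genes of the 4-gene reference were named after their values were seen. Itgam, on 2 rows, was taken from the row with more reads. Il13, Acod1 and Chil4 were not analysed here. Gene positions are as the table lists them. The processing notes name mm9, but 99.94% of the 25884 gene IDs found in GENCODE M21 lay on the same chromosome and 82.7% had the same start and end on GRCm38, so that build was used.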

Additional observations from a re-analysis of the deposited data

How the results depend on the processing

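Calls at an adjusted p under 0.05 depended on the test and on single hearts. Of all genes, 0 were called lower and 0 higher in the test used (555 and 293 at an unadjusted p under 0.05), 28 and 1 by DESeq2 and 0 and 0 by edgeR (402 and 177, and 522 and 315, at an unadjusted p under 0.05). Leaving out 1 heart gave 0 to 164 lower and 0 to 383 higher, the upper ends without miR-19a/19b mimic heart 3, and 0 to 1 of the 10 markers called, the 1 being Chil3 without that heart. At an unadjusted p under 0.05, leaving out 1 heart gave 0 to 1 markers higher (0 without control mimic heart 2 or miR-19a/19b mimic heart 1) and 0 to 1 lower. Markers whose groups did not overlap numbered 1 to 3, and relative to the lineage list 1 to 5. Leaving out a heart can only keep or raise such counts, and the shares over all genes in these settings are not given here. With each heart left out, the log2 fold change crossed 0 for Arg1 (-0.21 without miR-19a/19b mimic heart 3, up to 0.65), Cd68 (-0.11 without the same heart, up to 0.26), Nos2 (-0.20 to 0.02, the latter without miR-19a/19b mimic heart 1), Mrc1 (-0.08 without control mimic heart 1, up to 0.21) and Cd80 (-0.11 without control mimic heart 2, up to 0.22). The causes were not tested beyond the heart left out.

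The medians of lists with each heart left out ran from -0.54 to -0.16 for other inflammatory genes, -0.17 to 0.09 for other reparative genes, -0.09 to 0.02 for arginine metabolism, -0.20 to 0.01 for receptors of Cd80 and Cd86, 0.05 to 0.66 for eosinophil and mast cell genes, -0.70 to -0.43 for dendritic cell genes, -0.71 to 0.08 for neutrophil genes, -0.34 to 0.00 for lineage genes, -0.12 to 0.72 for cardiomyocyte genes and -0.66 to -0.16 for erythrocyte genes. The skeletal muscle median of 1.97 was 4.36 by DESeq2 and 4.32 by edgeR, and -0.06 without miR-19a/19b mimic heart 1. In all, 398 alternative values were computed, of which 365 kept their direction and their side of the threshold or stayed within the replicate spread.

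With the replicate number as a block, 0 genes were called lower and 0 higher, and 0 markers, the log2 fold changes being unchanged. Deviations of hearts with the same number correlated at -0.0121, -0.205 and -0.34 over 14184 genes, so no positive shared deviation was seen. These correlations cannot show whether hearts with the same number were operated on or processed together. The depth limits Retnla, with 5 to 20 reads per heart, most, and 3 hearts per group limit every gene.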

Other observations

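Other cell types of the infarct were read from lists of their markers. Monocyte genes were lower in the miR-19a/19b mimic hearts in 9 of 10 cases, with a median log2 fold change of -0.44 and 5 genes with groups apart and lower, against 5.3% of all genes tested. Ly6c2, which marks inflammatory monocytes fresh from the blood, had counts of 817.9, 747.6 and 465.2 in the control mimic hearts and 148.5, 268.1 and 176.3 in the miR-19a/19b mimic hearts, which makes a log2 fold change of -1.77 (SE 0.26). Its limma adjusted p was 0.3961, the smallest value over all genes. The adjustment can give the same value to several genes, so Ly6c2 need not hold it alone. Plac8 at -0.92 (SE 0.18) and the chemokine receptor Ccr2 at -0.53 (SE 0.14) were also apart. Chil3 is on the monocyte list too, and did not share this separation. The macrophage lineage list had 19 of 20 negative values at a median of -0.15 (0.00 without miR-19a/19b mimic heart 1), with 0 genes apart, and the protease gene Ctss was at -0.44 (SE 0.19).

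Dendritic cell genes were negative in 8 of 10 cases at a median of -0.60, with Xcr1 at -0.97 (SE 0.34) and Kmo at -0.76 (SE 0.20). The other 2 were Clec9a at 0.19 (SE 0.20) and Zbtb46 at 0.00 (SE 0.12). Their mean counts, 104.8 and 421.4, were above those of Xcr1 and Kmo, 14.9 and 67.7. T cell genes were negative in 9 of 10 cases at -0.52, with Cd8a at -0.82 (SE 0.34), Lck at -0.64 (SE 0.23) and Trac at -0.59 (SE 0.22). Neutrophil genes were negative in 10 of 12 at -0.39, with Retnlg at -1.52 (SE 0.61), but their median was 0.08 without miR-19a/19b mimic heart 1 and -0.17 by DESeq2. B cell genes were negative in 8 of 10 at -0.23 (-0.11 without miR-19a/19b mimic heart 1 or 2). Eosinophil and mast cell genes were positive in 6 of 8 at 0.38, with Siglecf at 0.64 (SE 0.50) and Kit at -0.24 (SE 0.15). Siglecf had a count of 134.9 in miR-19a/19b mimic heart 3 and of 27.6 to 48.5 in the other hearts, and its groups overlapped. Fibroblast, endothelial and cardiomyocyte lists had medians of -0.04, -0.00 and 0.15. The cardiomyocyte median was -0.12 without miR-19a/19b mimic heart 1, -0.11 without heart 2, 0.72 without heart 3 and 0.33 by DESeq2. The erythrocyte median was -0.48 with 6 of 6 genes negative, and -0.16 without miR-19a/19b mimic heart 3. No gene of any list passed at an adjusted p under 0.05 by limma.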
